A study of Homo sapiens with 3 samples.

Results

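Protocadherins form the largest group of the cadherin superfamily of calcium-dependent adhesion proteins. They were taken from the table as every gene symbol beginning with PCDH, leaving out antisense transcripts and symbols ending in P, which mark pseudogenes. The rule found 66 genes among the 24424 rows: 15 of the PCDHA (alpha) cluster, 16 of the PCDHB (beta) cluster, 22 of the PCDHG (gamma) cluster and 13 non-clustered genes. RNA had been sequenced from 3 populations of A375SM, an established human melanoma line and metastatic derivative of A375. Each population had been infected with a lentiviral hairpin vector carrying a green fluorescent reporter and selected for that reporter. They carried a hairpin against PRAME (shPRAME, labelled PRAME knockdown), a hairpin against BAP1 (shBAP1, labelled BAP1 knockdown) or the control vector shEmpty (labelled WT), and the labels differ on whether the control holds a non-targeting hairpin. Each group is 1 stable population of a single line and 1 library, so no difference below has a replicate check, no p-value was computed, and the effect of a hairpin cannot be told apart from that of lowering its target.

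The clustered protocadherins lie one after the other on the long arm of chromosome 5. Each PCDHA and PCDHG gene has its own promoter and its own large first exon, which encodes the extracellular and transmembrane part and is spliced to constant exons that the whole cluster shares, whereas the PCDHB genes have no constant exons. In neurons each cell uses a few of these promoters, chosen with the help of the DNA-binding factor CTCF, the cohesin complex and DNA methylation, and the resulting set of proteins lets a cell recognise its own branches. The non-clustered protocadherins are separate genes on several chromosomes and are known for roles in brain wiring, in the inner ear and as genes silenced in tumours.

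The libraries held 19430130 counts in shEmpty, 14181829 in shBAP1 and 18456328 in shPRAME. Levels are given as CPM, the count relative to the scaled library size, and folds with an exact 95% counting interval in parentheses. The call higher or lower needed a 2-fold or larger ratio of scaled counts and an interval that left out no change. Intervals cover counting error only, and a call compares libraries, not conditions. The targeted genes were lowest where the labels place the hairpin: PRAME stood at 327 CPM in shEmpty, 455 CPM in shBAP1 and 108 CPM in shPRAME, and BAP1 at 100.0, 35.2 and 97.9 CPM. All 8 melanoma and neural crest marker genes looked for had counts in every library, led by SOX10 at 367 to 657 CPM. Only 6 of them reached the count minimum given below, which PMEL and MLANA did not. Among these 6, AXL and NGFR were called higher and MITF lower in shPRAME, and NGFR and S100B higher in shBAP1. The summed keratinocyte markers stayed at or below 0.269 CPM and the endothelial ones at or below 0.320 CPM, with CDH5 at 0 in every library. Fewer cells expressing a gene and less RNA per cell cannot be told apart in these bulk samples.

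Expression of the family was uneven. A mean of at least 50 counts over the libraries was reached by 38 of the 66 genes, 28 fell below it, and PCDH8, PCDH11X and PCDH20 had no count in any library. The shared part of each transcript matters for how reads could be assigned. In the longest GENCODE 29 transcript of each gene, 100-base windows identical to another protocadherin made up a median of 54.0% in PCDHA, 46.3% in PCDHG and 6.04% in PCDHB. How reads in such windows were counted is not given in the sources used here, so values of the clustered genes are uncertain to that extent.

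In shPRAME 12 of the 38 genes above the minimum were called higher and 2 lower, against a background over all 11956 such genes of 10.2% higher, 9.08% lower and 19.3% in either direction. In shBAP1 9 were called higher and 5 lower, against 5.53%, 8.56% and 14.1% of all such genes. Comparing shPRAME directly with shBAP1, 13 were higher and 2 lower, against 14.2%, 10.9% and 25.1%. The median log2 ratio of the 38 genes was 0.47 in shPRAME (-0.06 over all genes above the minimum) and 0.04 in shBAP1 (-0.03 over all). Without a count minimum the numbers were 21 higher and 2 lower of 63 genes in shPRAME (11.8%, 7.54% and 19.3% in either direction of all 19528 genes with a count) and 15 and 8 in shBAP1 (7.83%, 7.61% and 15.4%). In the direct comparison they were then 21 and 6 (13.7%, 10.5% and 24.2%). Genes below the minimum are named below with their counts. Both knockdowns are set against the same shEmpty library, so a low or high count there enters both comparisons.

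The beta cluster went in opposite directions in the 2 knockdown libraries. Summed over its genes, shEmpty held 138 CPM (133 to 144), shBAP1 75.0 CPM (70.6 to 79.5) and shPRAME 231 CPM (224 to 238). The sum was therefore 1.85-fold lower in shBAP1 (1.72 to 1.98) and 1.67-fold higher in shPRAME (1.59 to 1.75) than in shEmpty, and 3.08-fold higher in shPRAME than in shBAP1 (2.88 to 3.29). The order shBAP1, shEmpty, shPRAME from lowest to highest was kept by 14 of the 16 genes. Above the minimum 10 of 11 kept it, an order found in 22.4% of all genes above the minimum. For PCDHB15, shBAP1 and shEmpty changed places when libraries were scaled by total count. The exceptions were PCDHB7, which was higher in shBAP1 than in shEmpty, and PCDHB1, with 4 counts in shEmpty and none elsewhere. Of the 5 neuronal markers all had counts in every library, with summed levels of 292 CPM in shEmpty, 134 in shBAP1 and 338 in shPRAME, the same order as the beta cluster. Single markers differed: SYT1 (51.8, 9.70 and 147 CPM) and SNAP25 (1.60, 1.28 and 2.13 CPM) kept that order, while TUBB3, with most of the sum, was highest in shEmpty (234, 114 and 186 CPM). MAP2 went against it (4.48, 8.35 and 3.12 CPM) and was called lower in shPRAME than in shBAP1, and RBFOX3, which defines mature neurons, had 6 to 9 counts. Their part in the protocadherin differences was not tested.

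**Figure D1:**
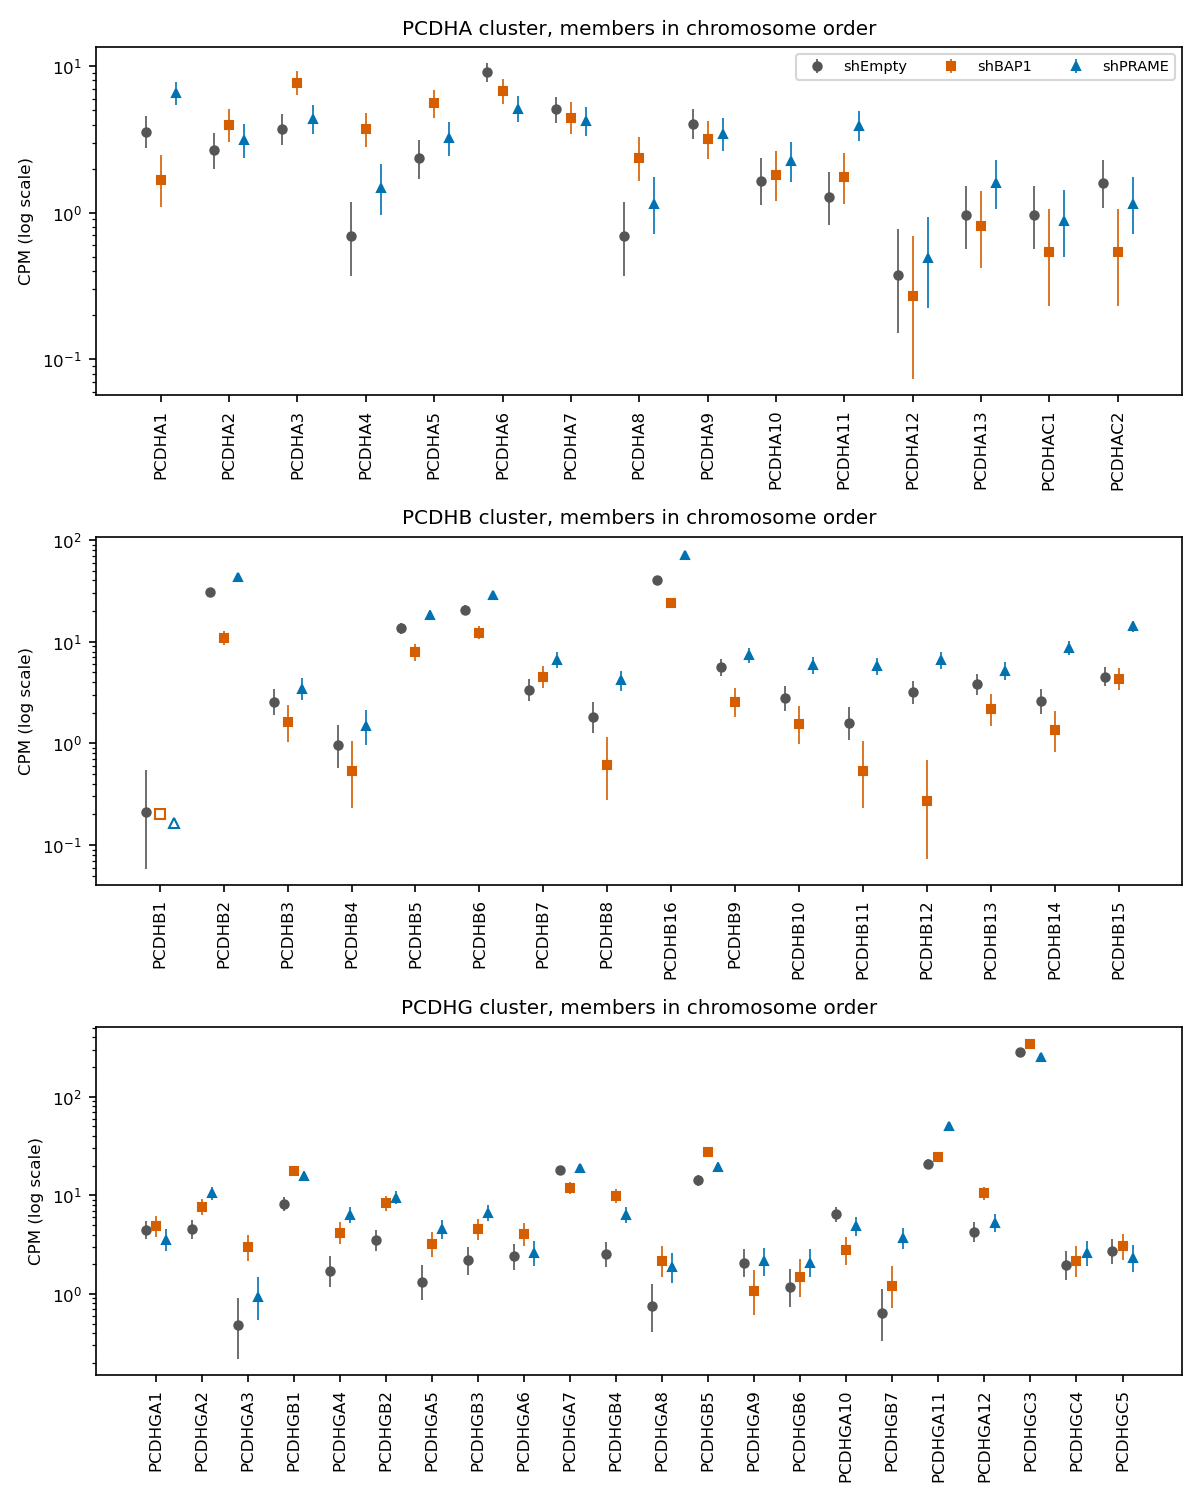
CPM on a log axis for each clustered protocadherin in chromosome order, with the PCDHA, PCDHB and PCDHG clusters in the upper, middle and lower panel. Filled symbols are 1 library each with its 95% Poisson interval, and open symbols mark a count of 0 drawn at 3 counts. In the middle panel shPRAME lies above and shBAP1 below shEmpty for 14 of 16 genes, and in the lower panel PCDHGC3 stands at 253 to 346 CPM, far above its neighbours.

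All 11 PCDHB genes above the count minimum had a log2 ratio above 0 in shPRAME, from 0.39 to 1.74, and 4 of them passed the 2-fold limit, against 10.2% of all genes. PCDHB14 stood at 2.62 CPM in shEmpty, 1.35 in shBAP1 and 8.75 in shPRAME, and was 3.35-fold higher in shPRAME than in shEmpty (2.42 to 4.71). PCDHB15, the last gene of the cluster, stood at 4.54, 4.31 and 14.1 CPM in the same order and was 3.11-fold higher in shPRAME (2.43 to 4.02). The others were PCDHB10 (2.78, 1.55 and 5.85 CPM) and PCDHB12 (3.20, 0.269 and 6.56 CPM). In shEmpty all 4 genes stood below the 13.6 CPM of PCDHB5. Below the minimum, PCDHB11 with 30, 8 and 105 counts and PCDHB8 with 34, 9 and 76 counts were 3.59-fold (2.37 to 5.58) and 2.29-fold (1.51 to 3.54) higher in shPRAME.

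Relative to the length of the longest transcript the most abundant beta gene was PCDHB16, at 8.06 CPM per kb in shEmpty, followed by PCDHB2 (7.49), PCDHB6 (6.29) and PCDHB5 (3.99). On this scale the intervals of PCDHB16 and PCDHB2 overlapped, as did those of PCDHB2 and PCDHB6, so neither pair is ranked beyond counting error. None of the 4 genes passed the 2-fold limit in shPRAME. PCDHB16 stood at 40.3 CPM in shEmpty, 24.0 in shBAP1 and 71.0 in shPRAME, a ratio of 1.76 to shEmpty in shPRAME (1.61 to 1.93). PCDHB6 stood at 20.5, 12.3 and 28.8 CPM, PCDHB5 at 13.6, 7.88 and 18.4 CPM. Their intervals in the 3 libraries did not overlap, so the order of the libraries exceeds the counting error for each of them. PCDHB7 stood at 3.36, 4.51 and 6.62 CPM, and its ratio of 1.97 in shPRAME passed the limit when libraries were scaled by total count or upper quartile.

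On the lower side, 3 of the 11 genes were called in shBAP1 and none was called higher, against 8.56% lower and 5.53% higher of all genes. PCDHB12 was the extreme case, with 60 counts in shEmpty, 4 in shBAP1 and 120 in shPRAME. It was 11.9-fold lower in shBAP1 than in shEmpty (4.41 to 45.0) and 24.4-fold higher in shPRAME than in shBAP1 (9.27 to 90.9), whereas PCDHB13, the next gene, had 72, 32 and 95 counts and stayed within 2-fold of shEmpty. PCDHB2 stood at 30.9 CPM in shEmpty, 10.8 in shBAP1 and 43.1 in shPRAME and was 2.85-fold lower in shBAP1 (2.39 to 3.41). PCDHB9, with 105, 38 and 134 counts, stood at 5.60, 2.56 and 7.33 CPM and was 2.19-fold lower. Below the minimum, PCDHB8 and PCDHB11 were called lower as well, at 2.99-fold (1.41 to 7.10) and 2.97-fold (1.33 to 7.50). In the direct comparison 10 of the 11 genes were higher in shPRAME, PCDHB7 being the one left out, against 14.2% of all genes. PCDHB3 (48, 24 and 63 counts) and PCDHB4 (18, 8 and 27 counts), both below the minimum, passed there too, at 2.13-fold (1.31 to 3.57) and 2.74-fold (1.21 to 6.98).

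Because the beta genes moved together, the stretches before their start sites are shown. Clustered protocadherin promoters are known to share a conserved element, with the letters CGCT at its core, that lies within a CTCF binding site. In the RefSeq promoter windows (GRCh38.p14, 250 bases before to 50 after the gene start, 1 window a gene) CGCT on either strand was present in 14 of 14 PCDHB windows. It is too short to separate them, since 69.3% of 27305 windows hold it. The longer string TGGCGCT, which contains CGCT and was chosen after these windows were seen, was present in 13 of the 14 PCDHB windows and in 4.08% of all windows. The one without it was PCDHB1, and for PCDHB6 and PCDHB11 no window was matched. All 13 matches lay on the gene's own strand and began 0 to 82 bases before its start, the one at 0 being that of PCDHB8, which begins at the gene's first base. The windows of 7 genes are given 5′ to 3′, ending before the gene start, with TGGCGCT in capitals: 2 abundant genes (PCDHB2 and PCDHB16), genes called in one or both knockdown libraries, and PCDHB7, which kept another order.
PCDHB2 (chr5:141094507-141094593, plus strand): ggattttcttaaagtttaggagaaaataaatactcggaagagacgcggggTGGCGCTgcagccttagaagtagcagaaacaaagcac
PCDHB7 (chr5:141172529-141172615, plus strand): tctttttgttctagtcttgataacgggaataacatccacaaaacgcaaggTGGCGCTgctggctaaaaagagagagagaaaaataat
PCDHB16 (chr5:141182273-141182359, plus strand): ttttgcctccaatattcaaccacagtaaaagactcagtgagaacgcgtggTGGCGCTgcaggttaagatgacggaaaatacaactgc
PCDHB9 (chr5:141187037-141187123, plus strand): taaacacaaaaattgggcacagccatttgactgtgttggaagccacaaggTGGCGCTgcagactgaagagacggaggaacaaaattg
PCDHB12 (chr5:141208606-141208692, plus strand): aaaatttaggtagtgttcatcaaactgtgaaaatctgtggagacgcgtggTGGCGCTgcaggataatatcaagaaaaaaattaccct
PCDHB14 (chr5:141223226-141223312, plus strand): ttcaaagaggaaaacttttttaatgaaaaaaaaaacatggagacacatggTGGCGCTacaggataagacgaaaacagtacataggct
PCDHB15 (chr5:141245277-141245363, plus strand): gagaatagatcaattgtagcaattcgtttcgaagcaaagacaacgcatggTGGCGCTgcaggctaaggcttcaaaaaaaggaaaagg

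The string is found alike before PCDHB12, the gene lowest against shEmpty in shBAP1, and before PCDHB7, which was not lower there. In the rest of the family fewer windows held it. None of 13 PCDHA windows and 3 of 20 PCDHG windows held it, those of PCDHGB4, PCDHGB5 and PCDHGC3. Of 11 non-clustered windows 1 held it, that of PCDH15, and the share over all windows was 4.08%. Because the string was chosen after the windows were seen, these shares cannot test whether it is particular to the beta cluster. A match describes letters and not a bound site, and no match says only that the string is not in that window.

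The gamma cluster had most of the family's clustered counts, and 1 gene carried most of them. PCDHGC3, a C-type gene near the constant exons that is widely expressed outside the nervous system, had 5312 counts in shEmpty, 5131 in shBAP1 and 4634 in shPRAME, or 284, 346 and 253 CPM. It was 1.22-fold higher in shBAP1 (1.17 to 1.27) and 1.12-fold lower in shPRAME (1.08 to 1.16), within the 2-fold limit in both. In its longest transcript 45.1% of the windows are shared with other protocadherins, and whether its counts hold reads of the constant exons from other gamma genes is not known, which limits its level and its shares. The whole cluster summed to 388 CPM in shEmpty, 502 in shBAP1 and 434 in shPRAME. Without PCDHGC3 the sums were 105, 156 and 181 CPM, so that the remaining 21 genes together were 1.49-fold higher in shBAP1 (1.40 to 1.58) and 1.73-fold higher in shPRAME (1.63 to 1.83), against 1.29-fold and 1.12-fold for the whole cluster. The other C-type genes, PCDHGC4 and PCDHGC5, had 32 to 51 counts in each library and overlapping intervals.

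Of the gamma genes above the minimum, 5 were called higher in both knockdown libraries. The share of all genes called higher in both was not computed, so this number has no background to be read against. The neighbours PCDHGA4, PCDHGB2, PCDHGA5 and PCDHGB3 passed the 2-fold limit in each, from low counts in the shared control. With a pseudocount of 1 CPM the shBAP1 calls of PCDHGA4, PCDHGA5 and PCDHGB3 ended. PCDHGA4 stood at 1.71 CPM in shEmpty, 4.18 in shBAP1 and 6.34 in shPRAME, which was 2.45-fold (1.57 to 3.87) and 3.71-fold (2.49 to 5.68) above shEmpty. PCDHGB2 stood at 3.52, 8.35 and 9.46 CPM, and PCDHGA5 at 1.33, 3.23 and 4.54 CPM. PCDHGB3 stood at 2.19, 4.51 and 6.67 CPM. For each of these 4 genes the interval of shEmpty lay below those of both knockdown libraries. PCDHGB4, further along, was called in both as well, but was highest in shBAP1, at 2.56, 9.90 and 6.29 CPM, 3.87-fold (2.77 to 5.47) and 2.46-fold (1.74 to 3.51) above shEmpty. PCDHGA8, below the minimum with 14, 32 and 34 counts, was also past the limit in both.

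All 7 PCDHGB genes were lowest in shEmpty. Of these, 5 lay above the minimum, and 24.0% of all genes above it were lowest in shEmpty. The PCDHGB sum was 2.18-fold higher in shBAP1 (1.97 to 2.41) and 1.95-fold higher in shPRAME (1.77 to 2.16). PCDHGB1 stood at 8.17 CPM in shEmpty, 17.8 in shBAP1 and 15.6 in shPRAME and was called in shBAP1, at 2.18-fold (1.78 to 2.68), while its 1.91-fold in shPRAME passed only with upper-quartile scaling. PCDHGB5, the most abundant of them, stood at 14.2, 27.5 and 19.6 CPM, and its 1.94-fold in shBAP1 (1.65 to 2.27) passed with total-count or upper-quartile scaling. PCDHGB7, below the minimum with 12, 18 and 67 counts, was 5.72-fold higher in shPRAME (3.07 to 11.6). PCDHGB6 had 22, 22 and 38 counts and was not called.

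Other gamma genes were called against shEmpty in a single knockdown library. PCDHGA11 stood at 21.0 CPM in shEmpty, 24.7 in shBAP1 and 51.0 in shPRAME, 2.43-fold higher in shPRAME than in shEmpty (2.16 to 2.74). It was 2.06-fold higher than in shBAP1 (1.83 to 2.33), a call that ended when libraries were scaled by total count. PCDHGA2 stood at 4.54, 7.68 and 10.5 CPM and was called in shPRAME, at 2.31-fold (1.78 to 3.02). PCDHGA12 stood at 4.27, 10.5 and 5.25 CPM and was 2.46-fold higher in shBAP1 (1.87 to 3.26). Its call as lower in shPRAME than in shBAP1 ended with upper-quartile or DESeq2 scaling. PCDHGA3, with 9, 44 and 17 counts, was 6.17-fold higher in shBAP1 (2.97 to 14.4). PCDHGA10 was the one gamma gene called lower, at 6.40 CPM in shEmpty, 2.76 in shBAP1 and 4.87 in shPRAME, 2.32-fold lower in shBAP1 (1.61 to 3.39). PCDHGA7 (18.0, 11.9 and 18.8 CPM), PCDHGA1 (4.48, 4.85 and 3.56 CPM) and PCDHGA6 (2.40, 4.04 and 2.63 CPM) stayed within the limit. PCDHGA9, below the minimum with 39, 16 and 39 counts, did so as well.

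**Figure D2:**
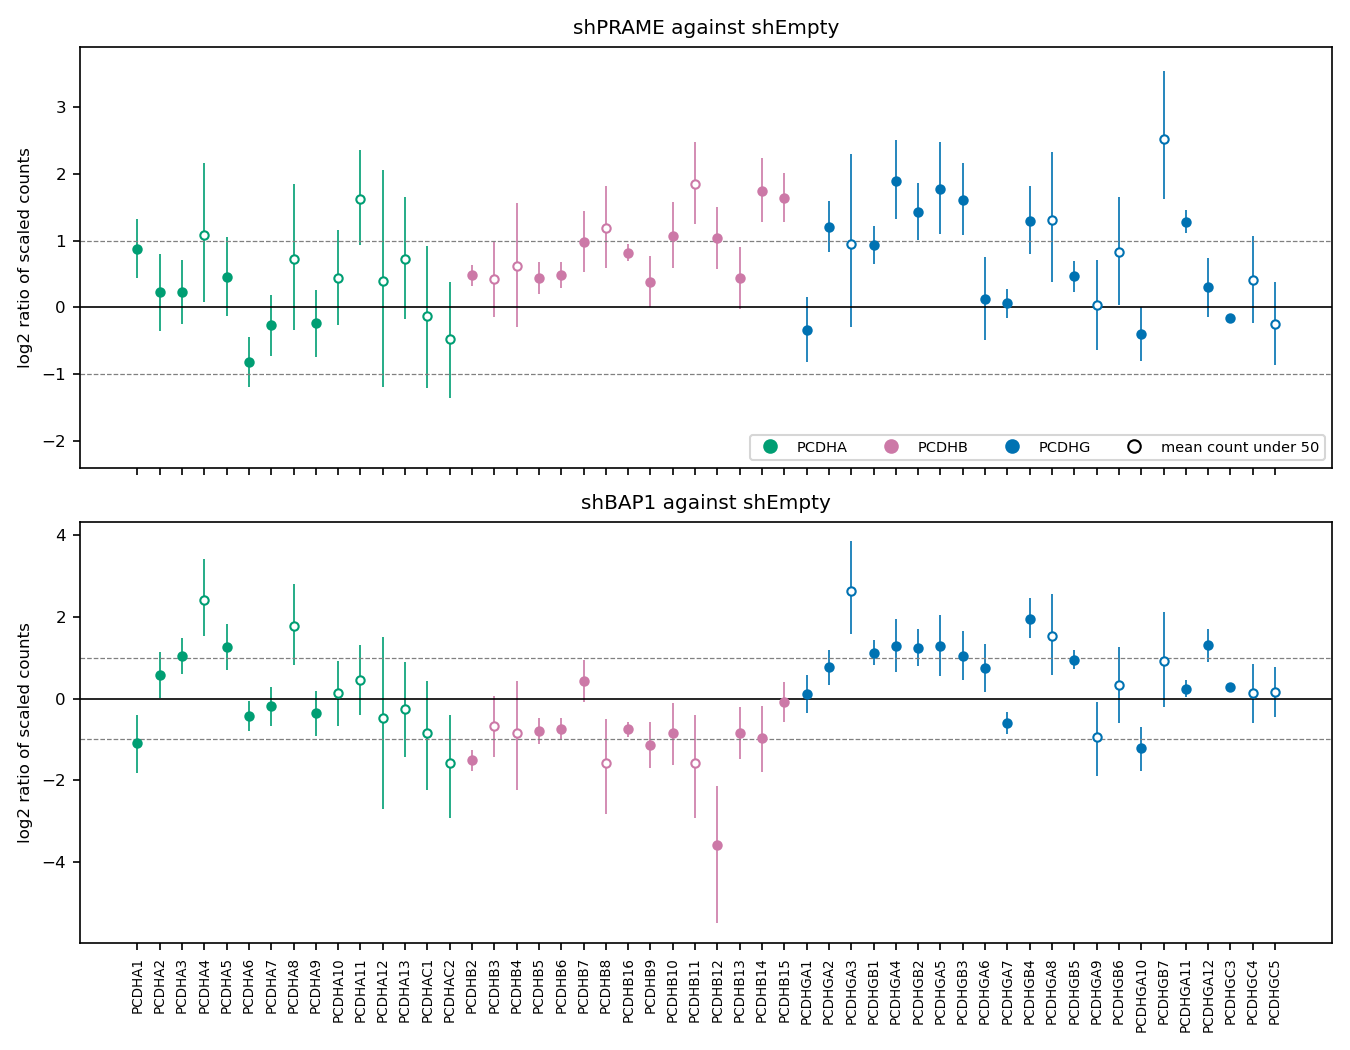
Log2 ratio of scaled counts to shEmpty for the 52 clustered genes with a count in every library, in chromosome order, with shPRAME in the upper and shBAP1 in the lower panel. Bars are exact 95% counting intervals, dashed lines mark 2-fold, and open symbols have a mean count under 50. The PCDHB genes lie above 0 in the upper and, except PCDHB7, below 0 in the lower panel, while the first PCDHG genes after PCDHGA1 lie above 0 in both.

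The alpha cluster changed little in its sum and more in its members. Its genes together held 38.7 CPM in shEmpty, 45.1 in shBAP1 and 43.0 in shPRAME. The sum was 1.16-fold higher in shBAP1 (1.05 to 1.29) and 1.11-fold higher in shPRAME (1.00 to 1.23). Of its 7 genes above the minimum, none was called in shPRAME, and in shBAP1 PCDHA3 and PCDHA5 were higher and PCDHA1 lower. The calls of PCDHA3, PCDHA5 and PCDHA1 in shBAP1 ended with a pseudocount of 1 CPM. Over all genes 19.3% were called in shPRAME, and 5.53% were higher and 8.56% lower in shBAP1, so that none and 1 lower of 7 are not set apart from them. PCDHA3 stood at 3.74 CPM in shEmpty, 7.68 in shBAP1 and 4.38 in shPRAME, 2.06-fold higher in shBAP1 (1.51 to 2.81). PCDHA5 stood at 2.35, 5.59 and 3.23 CPM, 2.38-fold higher (1.63 to 3.51). The gene between them, PCDHA4, had 13, 55 and 27 counts and was 5.34-fold higher in shBAP1 (2.88 to 10.7) and 2.13-fold in shPRAME (1.06 to 4.49). PCDHA8, with 13, 35 and 21 counts, was 3.40-fold higher in shBAP1.

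PCDHA1, the first gene of the cluster, went the other way, at 3.58 CPM in shEmpty, 1.68 in shBAP1 and 6.56 in shPRAME. It was 2.12-fold lower in shBAP1 than in shEmpty (1.32 to 3.51), a call that ended with total-count scaling, and was called higher in shPRAME than in shBAP1 (interval 2.52-fold to 6.26-fold). PCDHA11, with 24, 26 and 72 counts, was 3.07-fold higher in shPRAME than in shEmpty (1.91 to 5.10). PCDHAC2, a C-type alpha gene with 30, 8 and 21 counts, was 2.97-fold lower in shBAP1 (1.33 to 7.50). PCDHA6, the most counted alpha gene in shEmpty, stood at 9.07, 6.74 and 5.14 CPM. PCDHA2 (2.67, 3.97 and 3.12 CPM), PCDHA7 (5.07, 4.45 and 4.21 CPM) and PCDHA9 (4.06, 3.17 and 3.45 CPM) differed by less than 2-fold throughout. PCDHA10, PCDHA12, PCDHA13 and PCDHAC1 had 4 to 41 counts in each library and were not called.

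These member differences altered the makeup of the alpha cluster more than that of the beta cluster. The shares of its counts that would have to move between genes to turn 1 library into another were 26.1% from shEmpty to shBAP1 and 19.1% from shEmpty to shPRAME. The same measure was 11.6% and 9.79% in the beta cluster and 8.69% and 16.1% in the gamma cluster. The gamma values depend on PCDHGC3, and without it they were 22.0% and 19.9%. Without their top genes the values were 26.9% and 15.6% in alpha (PCDHA6) and 15.1% and 12.2% in beta (PCDHB16). The measure holds counting error, which weighs more in the alpha cluster with 669 to 786 counts a library. The leading alpha gene was PCDHA6 in shEmpty, with 23.4% of the counts, PCDHA3 in shBAP1 with 17.0%, and PCDHA1 in shPRAME with 15.3%. PCDHB16 led the beta cluster in all 3 libraries, with 29.1% in shEmpty, 32.0% in shBAP1 and 30.8% in shPRAME. PCDHGC3 led the gamma cluster with 73.0%, 68.9% and 58.4% in that order, and its exact binomial interval in shPRAME, 57.3% to 59.5%, lay below the other two.

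**Figure D3:**
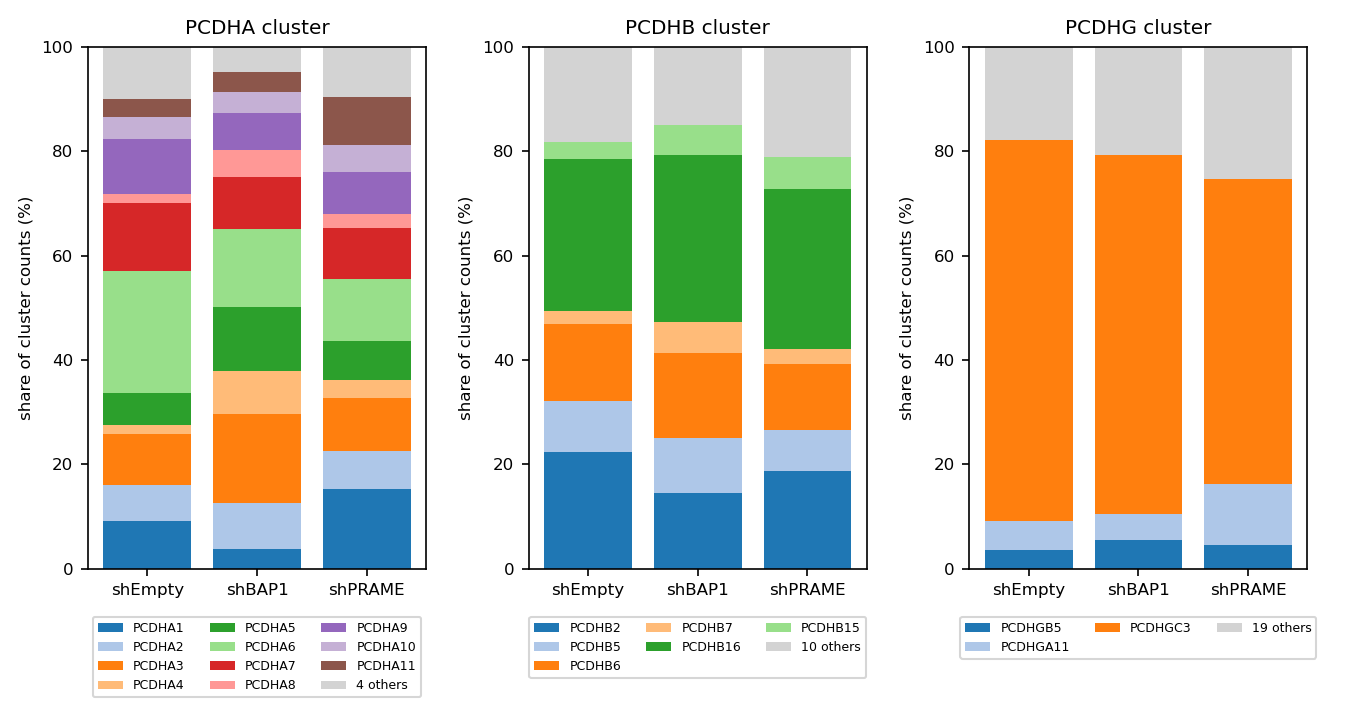
Share of each cluster's counts held by its members in each library, in percent, with genes at 5% or more in some library in colour and the others pooled in grey. The leading alpha gene differs between the 3 libraries, PCDHB16 holds 29.1% to 32.0% of the beta cluster in each, and PCDHGC3 holds 73.0% of the gamma cluster in shEmpty and 58.4% in shPRAME.

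Among the non-clustered genes the most abundant per transcript length were PCDH7, at 31.1 CPM per kb in shEmpty, and PCDH1, at 14.5. PCDH18 (2.74) and PCDH9 (0.936) followed, and the counting intervals of these 4 levels in shEmpty did not overlap. The place of PCDH9 depends on the length used, that of its longest transcript, 28227 bases. In CPM it stood above PCDH18 in shEmpty. PCDH7, whose cytoplasmic part binds protein phosphatase 1, had 210 CPM in shEmpty, 210 in shBAP1 and 102 in shPRAME. It was 2.06-fold lower in shPRAME than in shEmpty (1.95 to 2.18) and than in shBAP1 (1.95 to 2.19), and upper-quartile scaling ended the call against shEmpty. PCDH9, a delta protocadherin of the developing brain, stood at 26.4, 15.3 and 8.48 CPM. It was 3.12-fold lower in shPRAME (2.60 to 3.76) and at a ratio of 1.73 downward in shBAP1 (1.47 to 2.03), with no overlap among the libraries.

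Higher in shPRAME was PCDH18, whose cytoplasmic part binds the adaptor DAB1, at 16.2 CPM in shEmpty, 21.7 in shBAP1 and 59.6 in shPRAME. It was 3.69-fold higher than in shEmpty (3.24 to 4.20) and 2.75-fold higher than in shBAP1 (2.43 to 3.12). PCDH1, an adhesion protein of airway epithelium, stood at 69.4, 73.1 and 122 CPM, and its ratio of 1.76 in shPRAME (1.65 to 1.89) stayed within the limit. PCDH12, an endothelial protocadherin, stood at 3.58, 2.96 and 2.95 CPM with overlapping intervals.

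PCDH10, PCDH15 and PCDH17 had at most 1 count in shEmpty and more in a knockdown library, all below the count minimum. PCDH10, a promoter of cell migration and actin remodelling that is often silenced in tumours, had 1 count in shEmpty, 23 in shBAP1 and 72 in shPRAME. Against that single count the intervals of the ratio ran from 4.71-fold to 1196-fold in shBAP1 and from 12.8-fold to 2954-fold in shPRAME. PCDH15, a part of the tip links of inner ear hair cells, had no count in shEmpty or shBAP1 and 48 in shPRAME. With a floor of 3 counts in the library without any, the ratio was 16.4-fold against shEmpty and 13.0-fold against shBAP1. Ratios on this floor depend on its value and are not lower bounds. PCDH17, a protocadherin of axons and synapses, had none in shEmpty, 29 in shBAP1 and 7 in shPRAME. With the same floor in shEmpty, PCDH17 was 12.2-fold higher in shBAP1 and 2.39-fold higher in shPRAME. It was 5.10-fold lower in shPRAME than in shBAP1 (2.19 to 13.8). PCDH19, which is mutated in an epilepsy of girls, had 0, 3 and 2 counts, and PCDH11Y had 4, 5 and 6. In the longest transcripts 34.3% of the PCDH11Y windows are identical to PCDH11X, so the 2 cannot be separated fully.

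**Figure D4:**
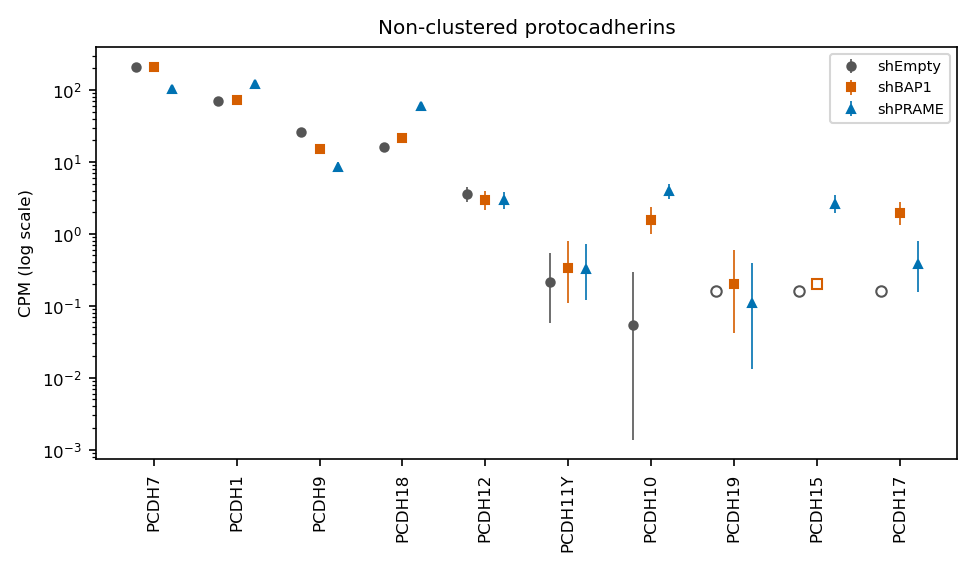
CPM on a log axis for the 10 non-clustered protocadherins with a count in any library, ordered by their level in shEmpty. Symbols are 1 library each with the 95% Poisson interval, and open symbols mark a count of 0 drawn at 3 counts. PCDH7 and PCDH9 are lowest in shPRAME, PCDH18 is highest there, and PCDH10, PCDH15 and PCDH17 lie above the control symbol in at least 1 knockdown library.

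Factors that choose or silence protocadherin promoters were called against shEmpty in small numbers. Of 21 such genes, all above the minimum, 4 were lower in shPRAME and 3 in shBAP1, none was higher, and the medians were -0.37 and -0.35. Of all genes above the minimum 9.08% were lower and 10.2% higher in shPRAME, and 8.56% and 5.53% in shBAP1. Against these shares 21 genes are few. Comparing shPRAME directly with shBAP1, 2 were higher (STAG2 and TET1) and 2 lower (EZH2 and STAG1), against 14.2% and 10.9% of all genes. SMCHD1, a chromatin protein known to silence clustered protocadherins, was at 212 CPM in shEmpty, 88.6 in shBAP1 and 89.3 in shPRAME, 2.39-fold (2.25 to 2.55) and 2.37-fold (2.24 to 2.51) lower. The cohesin subunits differed from each other: STAG2 was lower in shBAP1 (276, 120 and 267 CPM), while SMC1A (355, 247 and 149 CPM) and STAG1 (72.4, 76.8 and 32.7 CPM) were lower in shPRAME. The Polycomb methyltransferase EZH2 (85.3, 59.1 and 29.4 CPM) was lower in shPRAME and the demethylating enzyme TET1 (13.3, 5.93 and 13.0 CPM) in shBAP1. CTCF stood at 97.6, 88.4 and 71.9 CPM and was not called. Whether these levels bear on the protocadherins was not tested.

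Of 17 measured genes for intracellular partners 2 were higher and 1 lower in shPRAME, and 2 were lower in shBAP1 (medians 0.19 and -0.29), shares near those of all genes (10.2% higher and 9.08% lower in shPRAME, 8.56% lower in shBAP1). PTK2B, the kinase PYK2 that clustered protocadherins bind and inhibit, stood at 5.28 CPM in shEmpty, 2.49 in shBAP1 and 13.3 in shPRAME, past the limit in both. PRKCA, a protein kinase C, stood at 69.8, 34.2 and 139 CPM and was called in shBAP1. CYFIP2, a subunit of the WAVE actin regulatory complex, was 2.17-fold higher in shPRAME (1.90 to 2.48). DAB1, the adaptor bound by PCDH18, was 6.55-fold lower in shPRAME (4.12 to 10.9), where PCDH18 was higher. None of the 7 genes of the ADAM10 and gamma-secretase cleavage that releases protocadherin fragments was called in either library. The largest ratios among them were 1.57 downward for PSEN2 in shPRAME and 1.42 upward for APH1A in shBAP1, while NCSTN (138, 160 and 186 CPM) and APH1B (4.96, 5.25 and 3.88 CPM) lay closer to no change.

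Other large cadherins had 8 of 17 genes above the minimum, with 1 higher and 2 lower in each knockdown library. Over all genes the shares were 10.2% and 9.08% in shPRAME and 5.53% and 8.56% in shBAP1, and 8 genes are few to read against them. DCHS1, a planar polarity ligand, was 11.8-fold higher in shPRAME (9.55 to 14.7). CELSR2, a seven-pass cadherin of planar polarity, stood at 10.7 CPM in shEmpty, 49.0 in shBAP1 and 2.46 in shPRAME, the reverse of the beta cluster. CELSR1 (61.2, 18.4 and 76.6 CPM) and FAT3 (106, 39.0 and 92.0 CPM) were lower in shBAP1.

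Genes next to the clusters were looked at as well. Of 18 genes above the minimum that flank or lie between the clusters, none was called in either knockdown against shEmpty, with medians of -0.26 in shPRAME and 0.17 in shBAP1, where 19.3% and 14.1% of all genes were called in either direction. TAF7, which lies between the beta and gamma clusters, stood at 124 CPM in shEmpty, 165 in shBAP1 and 96.5 in shPRAME, the opposite order to the beta genes. ARAP3 (104, 52.1 and 172 CPM) and FCHSD1 (47.3, 26.1 and 72.9 CPM), beyond the gamma cluster, followed the beta order and were called higher in shPRAME than in shBAP1. WDR55, before the alpha cluster, was called lower there (36.5, 46.1 and 20.5 CPM). These 2 higher and 1 lower of 18 are near the 14.2% and 10.9% of all genes. RELL2 (28.4, 16.2 and 23.6 CPM) stayed within the limit.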

How the data were processed

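The authors deposited whole-number read counts per gene for 3 libraries, 1 per group. Tools named per the submitters' processing notes are TopHat, Cufflinks, FastQC and edgeR, and the build is hg19 (GRCh37). Which tool counted, the annotation and the strand setting: not given in the sources used here. Library sizes were scaled by TMM (edgeR 4.0.16 in R 4.3.3) on the whole table. Ratios on the log2 scale used no pseudocount and have exact conditional binomial 95% intervals (scipy 1.17.1). With 1 library a group, edgeR's test could not be used. A count of 0 was given a floor of 3 counts, or 0.160 CPM (shEmpty), 0.202 (shBAP1) and 0.164 (shPRAME), and no fold is given where both counts were 3 or fewer. The call rule was tested on simulated data, drawn with counting noise only. Every non-clustered gene is named, and every clustered gene with a mean of 50 counts or a call without a minimum. In each related list the up to 4 measured genes with the largest ratio to shEmpty are named. STAG1, TET1, CTCF, TAF7 and the marker genes were named after their values were seen. The members and lists were chosen with earlier results of these data known. Symbols were matched to RefSeq promoters for 58 of 66 genes and to GENCODE 29 (GRCh38) transcripts for 66, newer than the files' build and used for sequence, order and length only. Tried as alternatives were scaling by total counts, by upper quartile or with DESeq2 1.42.0, other count minima and fold limits, a pseudocount of 1 CPM, and sums without the top gene.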

Additional observations from a re-analysis of the deposited data

How the results depend on the processing

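No paired analysis was possible because each group is 1 library. Against 12 higher in shPRAME, 9 in shBAP1 and 13 in the direct comparison, a mean of at least 10 counts, or no minimum, gave 21, 15 and 21. A mean of 200 gave 2, 1 and 6, and a fold limit of 3 gave 6, 1 and 6. For the 2, 5 and 2 called lower, a mean of 10 or no minimum gave 8 in shBAP1 and 6 in the direct comparison, and a mean of 200 gave 1 and 1. A limit of 1.5 gave 13 and 7, and a limit of 3 gave 1, 1 and 0. Upper-quartile scaling left 1 lower in shPRAME, and it or DESeq2 scaling left 1 in the direct comparison. The log2 ratio of the PCDHB sum was 0.74 in shPRAME (0.82 with upper quartile) and -0.88 in shBAP1 (-0.77 with total counts). That of the PCDHG sum was 0.16 in shPRAME (0.25 with upper quartile, 0.79 without PCDHGC3) and 0.37 in shBAP1 (0.49 with total counts, 0.44 with upper quartile, 0.58 without PCDHGC3). In the direct comparison it was -0.21 (-0.29 with total counts, 0.21 without PCDHGC3). The PCDHA sum in shPRAME went from 0.15 to 0.35 without PCDHA6. Total-count scaling moved all shBAP1 ratios by 0.12, and with it 49.8% in place of 39.2% of all calls were higher. A pseudocount of 1 CPM ended 27 of the single-gene calls, over 158 single-gene ratios, called or not. Among the calls it ended were those of PCDHA1, PCDHA3, PCDHA5 and PCDHB9 in shBAP1 and of PCDHB10 and PCDHB12 in shPRAME. No single-gene call changed sign under the scalings or the pseudocount. The cause of these shifts was not tested, beyond the fewer or more genes that a minimum leaves. Counts under 50 limit most PCDHA genes.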

Other observations

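Pseudogenes of the clusters, left out of the family by its rule, had counts too. PCDHB17P had 68 counts in shEmpty, 13 in shBAP1 and 63 in shPRAME, and PCDHB18P had 30, 5 and 35. Both were called lower in shBAP1, at 4.14-fold (2.27 to 8.18) and 4.75-fold (1.83 to 15.7). PCDHB19P had 7, 4 and 22 counts and was 3.22-fold higher in shPRAME than in shEmpty (1.33 to 8.93). PCDHGB8P had 15, 10 and 13 counts. The antisense genes PCDH9-AS2, PCDH9-AS3 and PCDH9-AS4 had no count in any library, while PCDH9 itself had 155 to 495.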
